A study of Mus musculus with 32 samples.

Results

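The heat shock response was followed in mouse epidermis through 10 genes, the transcription factor gene Hsf1 and 9 chaperone genes, Hspa1a, Hspa1b, Hspa8, Hsph1, Dnajb1, Hspb1, Hsp90aa1, Hspd1 and Hspe1. They were chosen by name, as the heat shock factor and its best known cytosolic and mitochondrial chaperones, with earlier results of these data known. All 10 were found among 55401 gene identifiers and 15546 genes with enough reads to test. RNA was sequenced from the epidermis of 32 mice, 1 library per mouse, in 8 groups of 4 mice. Mice were wild type (WT) or labelled Ppard-/- (KO, lacking the gene of PPARβ/δ, a nuclear receptor), male or female, and either unexposed or exposed to UV. UV mice received a single dose of 120 mJ/cm2 on the back from a lamp that emits mostly UVB. Their skin was taken 24 h later. Control mice were handled without exposure and are labelled time 0, so exposure and labelled time differ together in every UV comparison. All mice, controls included, were 10 to 14 weeks old and hairless, from a cross of SKH-1 (carrying the Hr hr allele) with Sv129/C57BL6/J mice. The epidermis was peeled from the dermis of whole dorsal skin after ammonium thiocyanate, so cells other than keratinocytes could remain in it.

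Heat shock proteins are chaperones, which bind proteins that are unfolded or not yet folded and keep them from aggregating. HSF1, the protein of Hsf1, is held inactive in resting cells and, under heat or other proteotoxic stress, binds repeats of the motif GAA and its reverse complement TTC (heat shock elements) before chaperone genes. In skin, the small heat shock protein HSPB1 is abundant in the differentiating layers of the epidermis, and UV is known to cause DNA damage, protein oxidation and inflammation.

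The stretches before the start sites are shown because chaperone genes of this kind are known for control through heat shock elements, and because 2 of them are near copies. The reference promoters (RefSeq, assembly GRCm38.p6, from 250 bases before to 50 after each start) held 10 windows for 7 of the 10 genes. Hsf1, Hspa8 and Hsp90aa1 had no entry. Capitals mark inverted repeats of the forms GAANNTTC or TTCNNGAA, searched on both strands, and each line is written 5′ to 3′ on the gene's own strand.
Hspa1a, chr17:34972157-34972406, minus strand: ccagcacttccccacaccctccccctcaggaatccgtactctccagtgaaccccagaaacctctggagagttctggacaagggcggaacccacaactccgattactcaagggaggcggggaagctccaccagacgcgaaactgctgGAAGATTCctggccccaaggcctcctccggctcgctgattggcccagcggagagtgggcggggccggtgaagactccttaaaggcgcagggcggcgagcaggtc
Hspa1b, chr17:34959239-34959488, minus strand: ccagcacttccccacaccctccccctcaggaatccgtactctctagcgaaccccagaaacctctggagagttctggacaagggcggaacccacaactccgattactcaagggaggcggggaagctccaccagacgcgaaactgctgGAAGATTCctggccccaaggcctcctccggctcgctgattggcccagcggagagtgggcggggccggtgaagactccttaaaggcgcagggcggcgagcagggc
Hspb1, chr5:135887669-135887918, plus strand: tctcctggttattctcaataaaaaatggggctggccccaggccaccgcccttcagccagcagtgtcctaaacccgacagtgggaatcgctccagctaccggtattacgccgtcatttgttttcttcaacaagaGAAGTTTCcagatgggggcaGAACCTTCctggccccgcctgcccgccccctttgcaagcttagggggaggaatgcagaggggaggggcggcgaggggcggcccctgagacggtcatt
Hspe1, chr1:55088053-55088082, plus strand: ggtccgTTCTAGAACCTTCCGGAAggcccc
Hspd1, chr1:55088053-55088082, minus strand: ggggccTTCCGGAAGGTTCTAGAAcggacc
Hsph1, chr5:149636351-149636380, minus strand: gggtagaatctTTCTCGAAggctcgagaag

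The 250 bases before Hspa1a and Hspa1b were identical at 247 positions. Counted from 1 at the 5′ end of the printed stretch, the substitutions from Hspa1a to Hspa1b were C44T, T47C and T249G, and none of them touched the shared repeat, which began at position -104 from the start. The Hspb1 stretch held 2 repeats, beginning at -117 and -97. Hspd1 (the mitochondrial chaperonin HSP60) and Hspe1 (its lid, HSP10) lie head to head on chromosome 1 in GRCm38, their annotated spans overlapping by 112 bases, and the 30 bases printed for them are the 2 strands of 1 stretch. That stretch held 3 overlapping repeats and so also a 3-unit form, in which a further GAA or TTC follows at the same spacing. The Hsph1 windows also held 3 repeats, 2 of them overlapping past the start as a 3-unit form, and neither window of Dnajb1, nor the other window of Hspd1, held a match. Of all 32851 reference promoters, 15.1% held a 2-unit form and 0.603% a 3-unit form. A match of letters is a description of the sequence and not evidence of binding.

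Libraries held 22919428 to 40653581 gene-assigned reads, with a median of 27600228, and the 10 genes had from 199 reads (Hspe1, lowest mouse) to 11198 reads (Hspb1, highest mouse). Suprabasal keratinocyte markers were abundant in every library, at a summed 10102 to 111279 cpm (reads scaled to a common library size). Other tissue was present in some: 9 of the 32 libraries had over 1000 cpm of skeletal muscle or dermal fibroblast markers in sum, muscle in all 9 (up to 3770 cpm) and fibroblast markers in 1 KO UV female (2198 cpm). Ppard reads remained in the KO mice, at 70.2 to 88.8 cpm against 87.2 to 105 cpm in WT controls, and at 174 to 239 cpm against 252 to 326 cpm after UV. The log2 fold change of KO against WT mice was -0.26 without UV (SE 0.068, adjusted p = 0.156 in edgeR's quasi-likelihood test), and -0.42 after UV (SE 0.068, adjusted p = 0.00114). Reads per gene do not check this genotype label, since the deleted exons are not given in the sources used here.

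Compared per length, as cpm per kilobase of exon, Hspb1 was the most abundant of the 10 in all 4 combinations of genotype and exposure. Its median was 303 in WT controls and 325 in KO controls, and 187 and 220 after UV. In WT controls it was followed by Hspa1b at 55.8, Dnajb1 (an HSP40 co-chaperone that delivers clients to HSP70) at 48.9 and Hspd1 at 35.2. Next came Hspa1a at 23.7, Hspa8 at 19.6, Hspe1 at 11.8, Hsph1 at 9.18, Hsp90aa1 at 7.89 and Hsf1 at 4.46. Neighbours in this order overlapped between mice in 5 of 9 places, and only Hspb1 over Hspa1b, Dnajb1 over Hspd1, Hspa8 over Hspe1 and Hsp90aa1 over Hsf1 were apart. The order is of counted reads over the full exon length. Of the 100-base windows of each gene, 0% (Hsf1, Hsph1 and Dnajb1) to 56.5% (Hspa1a) also occur in other genes. Genes with many such windows could be placed too low. After UV the order changed most for Hsp90aa1, which moved from 9th to 2nd place in both genotypes, with medians of 64.5 in WT and 68.9 in KO mice.

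**Figure D1:**
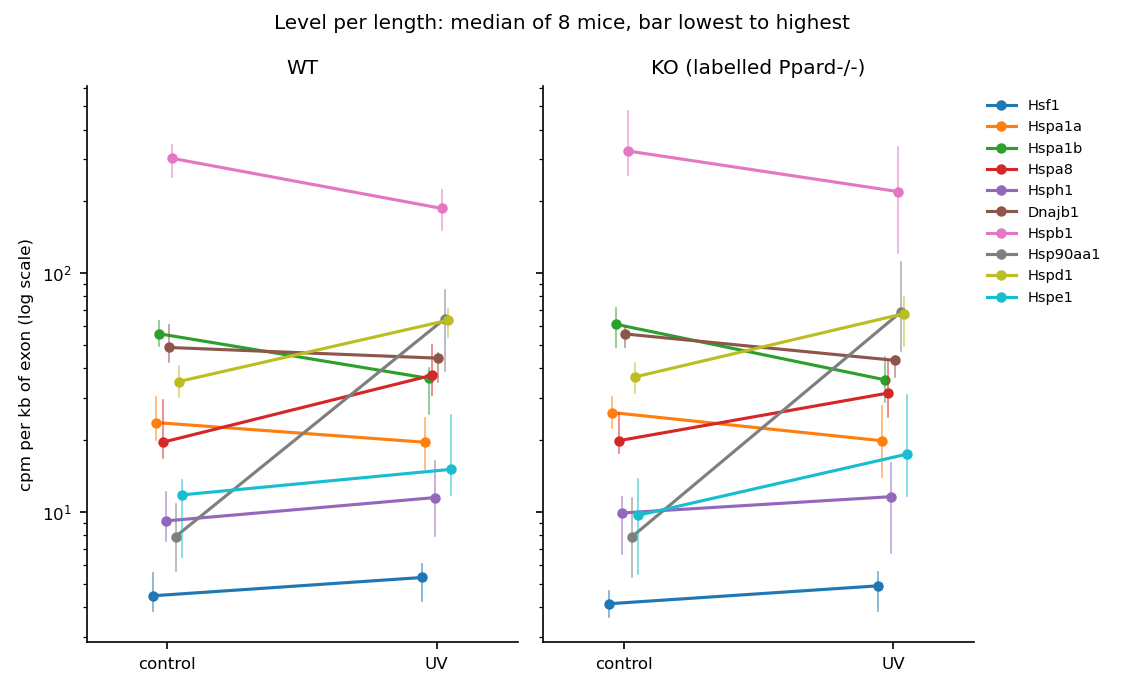
Level of each gene as cpm per kilobase of exon (log axis) in WT mice (left) and KO mice (right), as the median of 8 control and 8 UV mice with a bar from the lowest to the highest mouse. Hspb1 lies above and Hsf1 below the other genes throughout, and Hsp90aa1 crosses 7 others between control (7.89 in WT) and UV (64.5 in WT).

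Which of these genes changed 24 h after UV was asked in each genotype, over both sexes. In WT mice 5 of the 10 rose (Hsf1, Hspa8, Hsp90aa1, Hspd1, Hspe1), beside 34.5% of all genes tested, 4 fell (Hspa1a, Hspa1b, Dnajb1, Hspb1), beside 36.5%, and Hsph1 did not pass the test. In KO mice the outcome was the same for each of the 10, where 37.3% of all genes rose and 33.5% fell. A call means an adjusted p under 0.05 in edgeR's quasi-likelihood test, and 71% of all genes tested were called for UV in WT and 70.8% in KO mice, so 9 of 10 is close to what genes in general did. The median log2 fold change of the 10 was 0.27 in WT and 0.25 in KO mice, beside -0.014 and 0.088 over all genes tested. In a bulk sample, fewer cells of a type and less RNA per cell cannot be told apart.

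**Figure D2:**
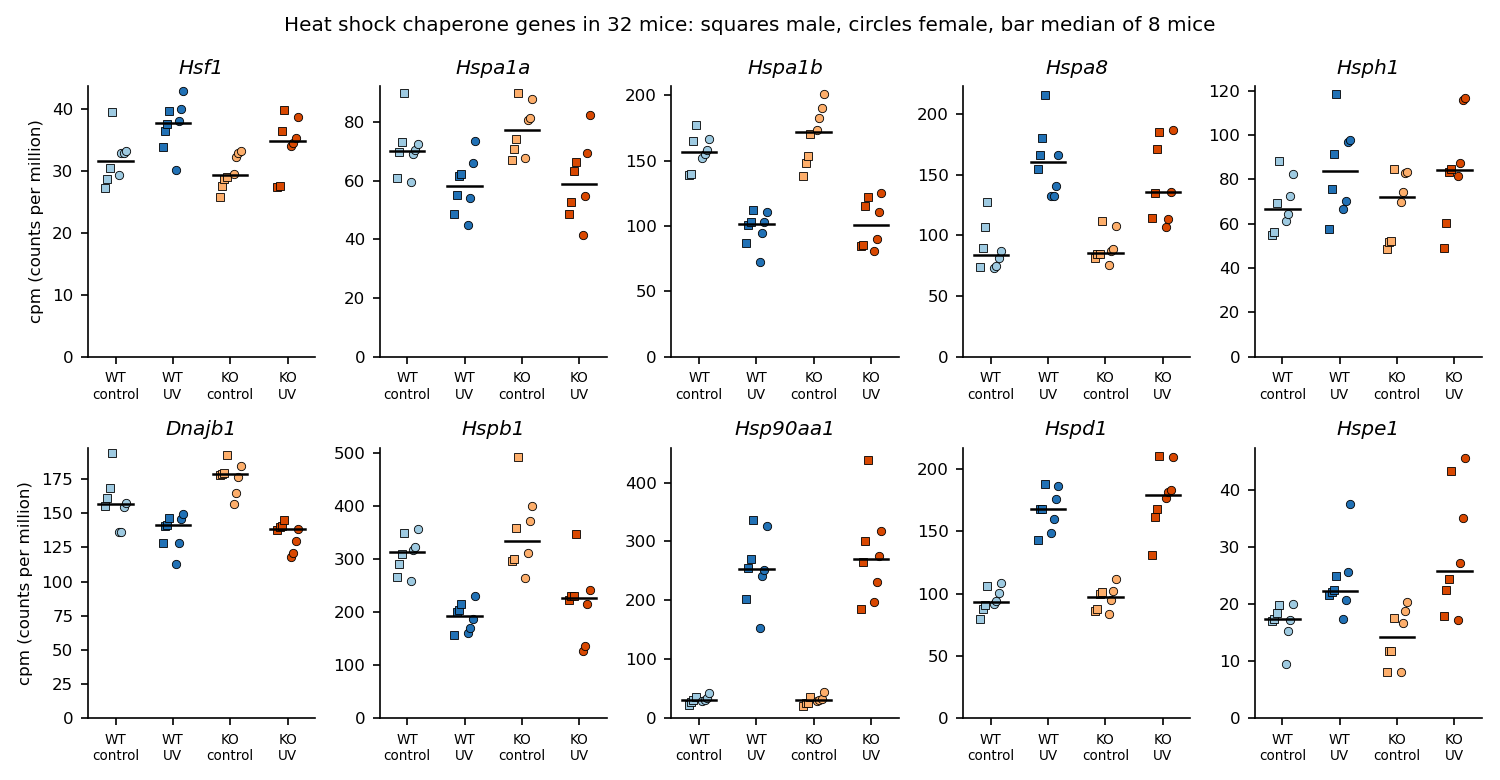
Level of each gene in cpm (axes from 0) in each of the 32 mice by genotype and exposure, squares for males, circles for females, and a bar for the median of 8 mice. Every UV mouse lies above every control mouse of its genotype for Hsp90aa1 and Hspd1, and below it for Hspa1b.

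Hsp90aa1, the inducible form of cytosolic HSP90, which matures kinases and steroid receptors, changed most. WT controls had 22.3, 31 and 42.6 cpm (lowest, median and highest of 8 mice) and WT UV mice 153, 253 and 336 cpm. KO controls had 21.1, 30.9 and 44.8 cpm and KO UV mice 185, 271 and 439 cpm. Even the lowest UV mouse was above every control mouse in both genotypes. The rise was 7.99-fold in WT mice (log2 fold change 3.0, SE 0.177, adjusted p = 2.12e-14) and 8.97-fold in KO mice (3.16, SE 0.179, adjusted p = 9.34e-15), in edgeR's quasi-likelihood test. Of the summed cpm of all 10 genes, Hsp90aa1 made up a median of 3.03% in WT controls and 21.1% in WT UV mice, and 2.73% and 20.9% in KO mice. The sum itself went from a median of 1011 to 1200 cpm in WT and from 1094 to 1283 cpm in KO mice. Of the 100-base windows of the Hsp90aa1 transcripts, 38% also occur in other genes, most in Gm12346, so some of its reads could have been set aside as aligned to several places.

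Among mitochondrial chaperones, Hspd1 rose without overlap between UV and control mice. Its WT controls had 79.7, 93.1 and 108 cpm and its WT UV mice 143, 168 and 188 cpm, and in KO mice it had 83.4, 97.2 and 112 cpm without and 131, 179 and 211 cpm with UV. This was 1.76-fold in WT (log2 fold change 0.82, SE 0.083, adjusted p = 1.19e-09) and 1.85-fold in KO mice (0.89, SE 0.083, adjusted p = 2.59e-10), in edgeR's test. Its head-to-head partner Hspe1 was scarcer and more variable. Hspe1 was at 9.54, 17.4 and 20.1 cpm in WT controls and 17.4, 22.3 and 37.7 cpm in WT UV mice, so that the groups overlapped. In KO mice it had 8.12, 14.3 and 20.4 cpm without UV and 17.3, 25.8 and 45.7 cpm with UV, again with overlap. The rise of Hspe1 was 1.43-fold in WT (log2 fold change 0.52, SE 0.215, adjusted p = 0.0347) and 2.07-fold in KO mice (1.05, SE 0.217, adjusted p = 0.000105). The WT call was lost when any 1 of 5 WT mice was left out, with 0.39 and adjusted p = 0.109 without the UV female with the highest level.

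Of the cytosolic HSP70 system, Hspa8, which encodes the constitutive chaperone HSC70, rose. Its levels were 72.9, 84.1 and 127 cpm in WT controls and 132, 161 and 216 cpm in WT UV mice, with no overlap. KO mice had 75.6, 85.8 and 112 cpm without UV and 107, 135 and 187 cpm with it, where the lowest UV mouse fell just under the highest control mouse. The rise was 1.81-fold in WT (log2 fold change 0.85, SE 0.124, adjusted p = 6.37e-07) and 1.59-fold in KO mice (0.67, SE 0.123, adjusted p = 2.33e-05), in edgeR's test. Hsph1, the HSP110 that acts as nucleotide exchange factor for HSP70, had a median of 66.7 cpm in WT controls and 83.6 cpm after UV, with ranges of 55.0 to 88.3 and 57.8 to 119 cpm. Its log2 fold change was 0.30 in both genotypes (SE 0.150, adjusted p = 0.0772 in WT and 0.0756 in KO mice), and the WT interval of -0.0092 to 0.61 spans both no change and a rise. Leaving out any 1 of 7 mice (5 WT and, through the shared estimate of the spread and scaling, 2 KO) brought Hsph1 past the threshold in WT. The WT value was 0.39 with adjusted p = 0.0198 in edgeR's test without 1 WT UV male, the lowest of its group. For the KO change any 1 of 2 mice did so, with 0.41 and adjusted p = 0.014 without 1 KO control male.

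Opposite to these, the inducible HSP70 genes Hspa1a and Hspa1b fell. Hspa1b was at 139, 156 and 177 cpm in WT controls and at 72.2, 102 and 112 cpm in WT UV mice. In KO mice it was at 138, 172 and 201 cpm without UV and at 81.1, 100 and 125 cpm with UV. No UV mouse reached the lowest control of its genotype. The decrease was 1.60-fold in WT (log2 fold change -0.68, SE 0.096, adjusted p = 4.37e-07) and 1.65-fold in KO mice (-0.73, SE 0.096, adjusted p = 1.44e-07), in edgeR's test. Hspa1a was lower and its groups overlapped, with 59.5, 70.2 and 89.7 cpm in WT controls and 44.9, 58.3 and 73.4 cpm in WT UV mice. In KO mice it had 66.9, 77.4 and 89.8 cpm without UV and 41.6, 58.9 and 82.4 cpm with UV. Its log2 fold change was -0.28 in WT (SE 0.117, adjusted p = 0.0353) and -0.37 in KO mice (SE 0.117, adjusted p = 0.00626), in edgeR's test.

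The WT call of Hspa1a was fragile. It was lost when any 1 of 13 mice was left out, with adjusted p from 0.05 to 0.130, and with RLE scaling (-0.25, adjusted p = 0.0599). The pair shares sequence: 47.1% of the 100-base windows of Hspa1a also occur in Hspa1b, and 49.9% of those of Hspa1b in Hspa1a, so each gene was counted mainly on the remainder. With their reads summed as 1 gene, an alternative added after the data were seen, the log2 fold change was -0.54 in WT (SE 0.102, adjusted p = 2.95e-05) and -0.61 in KO mice (SE 0.102, adjusted p = 6.43e-06).

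Dnajb1, the main inducible HSP40 partner of HSP70, fell as well. WT controls had 136, 157 and 194 cpm and WT UV mice 113, 141 and 149 cpm, with overlap, whereas KO controls had 157, 179 and 193 cpm and KO UV mice 118, 138 and 145 cpm, with none. The decrease was 1.15-fold in WT (log2 fold change -0.21, SE 0.058, adjusted p = 0.00238) and 1.32-fold in KO mice (-0.40, SE 0.058, adjusted p = 6.38e-07), in edgeR's test. Hsf1 moved little in the other direction. It had 27.3, 31.6 and 39.5 cpm in WT controls and 30.2, 37.8 and 42.9 cpm in WT UV mice, and 25.8, 29.3 and 33.3 against 27.4, 34.9 and 39.9 cpm in KO mice, with overlap in both. The rise of Hsf1 was 1.17-fold in WT (0.23, SE 0.082, adjusted p = 0.0132) and 1.15-fold in KO mice (0.20, SE 0.082, adjusted p = 0.0327). Leaving out any 1 of 7 KO mice ended the KO call, with adjusted p up to 0.105 among them.

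Hspb1, the small heat shock protein of differentiating keratinocytes, fell by the same factor in both genotypes. Levels were 259, 312 and 356 cpm in WT controls and 157, 193 and 231 cpm in WT UV mice, with no overlap. KO controls ranged from 265 to 492 cpm (median 335) and KO UV mice from 126 to 347 cpm (median 227), where 1 UV male lay among the controls. The decrease was 1.62-fold in WT (log2 fold change -0.70, SE 0.138, adjusted p = 6.14e-05) and 1.62-fold in KO mice (-0.70, SE 0.138, adjusted p = 6.41e-05), in edgeR's test. Suprabasal keratinocyte markers fell in the same mice: 7 of 8 measured in WT and 8 of 8 in KO mice, beside 36.5% and 33.5% of all genes tested. Krt1 and Krt10 (keratins of the spinous layer) had log2 fold changes of -2.41 and -2.17 in WT mice. The summed level of the 8 markers was 70339 to 81446 cpm in WT controls and 15976 to 29677 cpm after UV, and 64906 to 111279 and 10102 to 35086 cpm in KO mice. Across the 32 mice, after removing the 8 group means, Hspb1 and this sum had a Pearson r of 0.67 (Spearman 0.61, and 0.54 for Pearson without the 2 mice with the most extreme sums). Their part in the fall of Hspb1 was not tested. Of the 100-base windows of Hspb1, 44% also occur in the pseudogene Hsp25-ps1.

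**Figure D3:**
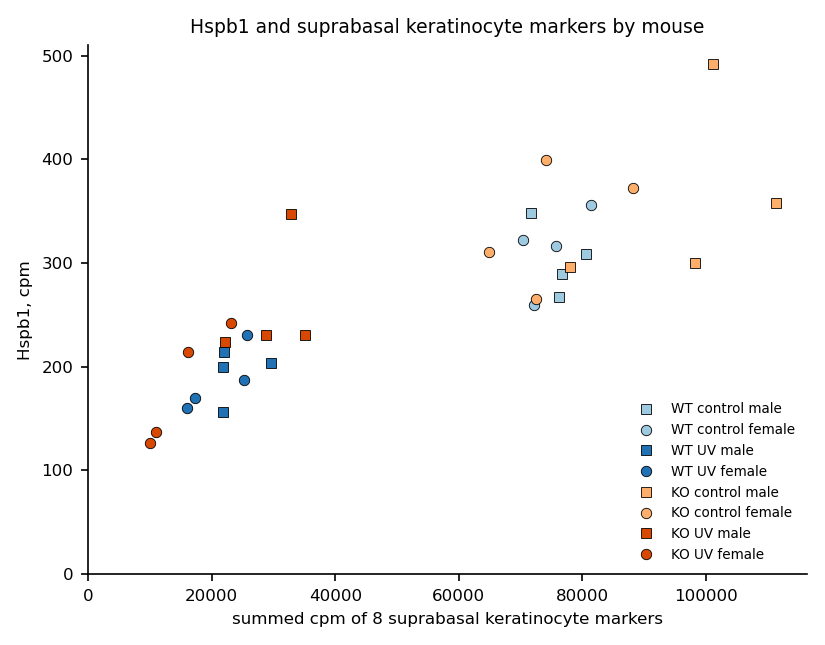
Hspb1 in cpm against the summed cpm of 8 suprabasal keratinocyte markers, 1 point per mouse, squares for males and circles for females. Control mice (marker sums from 64906 cpm up) and UV mice (up to 35086 cpm) form 2 separate clouds, and 1 KO UV male stands at 347 cpm of Hspb1 among UV mice otherwise at 242 cpm or less.

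Counted by overlap between single mice, 5 of the 10 genes were apart between UV and control in WT mice (Hspa8, Hsp90aa1 and Hspd1 higher, Hspa1b and Hspb1 lower), beside 43.4% of all genes tested. In KO mice 4 were apart (Hsp90aa1 and Hspd1 higher, Hspa1b and Dnajb1 lower), beside 35.1%. Without the 9 libraries with much muscle or fibroblast RNA, a choice made after the data were seen, Hsp90aa1, Hspd1, Hspa8, Hspe1, Hspa1b and Hspb1 were called in WT mice (4 up and 2 down, 70.4% of all genes). The WT calls of Hsf1 (log2 fold change 0.22, adjusted p = 0.0846), Hspa1a (-0.23, adjusted p = 0.130) and Dnajb1 (-0.14, adjusted p = 0.117) were then lost, in a smaller set of mice. In KO mice 4 rose and 4 fell without these libraries (67.5% of all genes), and the call of Hsf1 was lost at a log2 fold change of 0.23 (adjusted p = 0.0816), above its 0.20 over all mice.

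**Figure D4:**
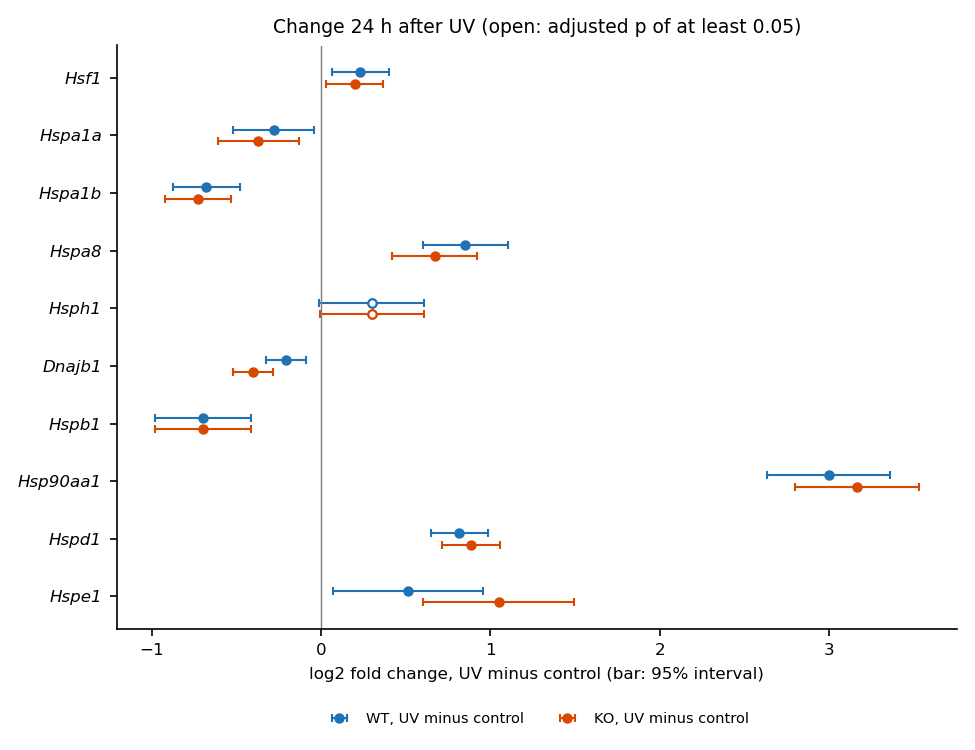
Log2 fold change of each gene 24 h after UV in WT and KO mice, 8 UV against 8 control mice each, with its 95% interval, filled where the adjusted p is under 0.05. Hsp90aa1 stands apart at 3.0 in WT and 3.16 in KO mice, 4 genes lie left of 0 in both genotypes, and only Hsph1 is open.

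The loss of Ppard was compared without UV, after UV, and as a difference between the UV changes. None of the 10 genes passed the test in any of the 3 comparisons. Without UV, 0 of 10 were called in edgeR's test (0.206% of all genes tested), and 1, Dnajb1, had an unadjusted p under 0.05 (8.52% of all genes). After UV it was 0 of 10 (3.31%), with 0 of 10 at an unadjusted p under 0.05 (20.1%). For the difference of UV changes it was 0 of 10 (0.765%), with 1, again Dnajb1, at an unadjusted p under 0.05 (19.6%). DESeq2 and limma called 0 of 10 in each as well. No gene was apart between the 8 WT and 8 KO mice, without UV (0.103% of all genes) or after UV (0.187%).

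The intervals say how large a genotype difference could have gone unseen. Without UV the log2 differences, KO minus WT, lay between -0.26 (Hspe1, interval -0.70 to 0.18) and 0.18 (Hspb1, interval -0.10 to 0.46). Dnajb1 was 0.16 higher in KO controls (interval 0.045 to 0.28, adjusted p = 0.399 in edgeR's test), and its UV change was 0.19 lower in KO than in WT mice, a difference of -0.19 (interval -0.36 to -0.026, adjusted p = 0.189). For Hspe1 the UV change was larger in KO mice by 0.53 (interval -0.090 to 1.16, adjusted p = 0.336). Hsp90aa1 differed by 0.17 (interval -0.31 to 0.65, adjusted p = 0.738), but by 0.013 without 1 KO UV male and 0.022 without the 9 libraries rich in muscle or fibroblast RNA, and Hspb1 by 0.0010 (interval -0.40 to 0.40), a value whose sign changed with the scaling. After UV the levels of KO minus WT mice ranged from -0.16 (Hspa8) to 0.27 (Hspe1). Hspa1b and Hspa1a lie on chromosome 17, 6.65 and 6.67 Mb from Ppard, where KO mice can carry linked DNA of the strain in which the knockout was made, and at these 2 genes that DNA and the loss of Ppard cannot be told apart.

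**Figure D5:**
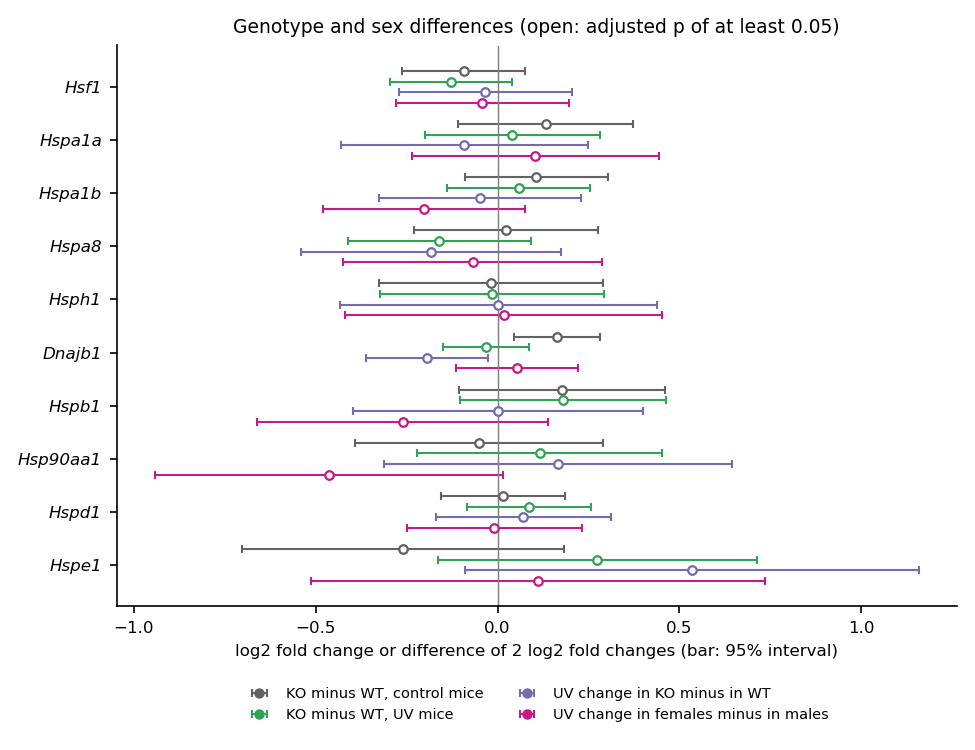
Differences on the log2 scale with 95% intervals: KO minus WT in control mice and in UV mice (8 against 8), the UV change in KO minus that in WT mice, and the UV change in females minus that in males. All points are open, as none had an adjusted p under 0.05, and the widest intervals are those of Hspe1, up to 1.16.

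Males and females were compared next, since the study asks how the sexes differ after UV. The UV change did not pass the test of a sex difference for any of the 10 genes in edgeR (0 of 10, beside 0% of all genes tested), with 0 of 10 at an unadjusted p under 0.05 (7.02% of all genes) and 0 of 10 called by DESeq2 and by limma. The largest difference, females minus males, was -0.46 for Hsp90aa1 (interval -0.94 to 0.016, adjusted p = 0.715 in edgeR's test). Hsp90aa1 rose 9.0-fold in WT males, 7.09-fold in WT females, 11-fold in KO males and 7.32-fold in KO females. By single groups of 4 against 4 mice, 6 of the 10 were called in WT males (60.9% of all genes), 6 in WT females (61.3%), 8 in KO males (61.7%) and 7 in KO females (60.7%). Hspa1b and Hspb1 fell and Hspa8, Hsp90aa1 and Hspd1 rose in all 4. The call of Hspb1 in KO males (-0.49, adjusted p = 0.0327) was lost when any 1 of 5 KO males was left out, down to -0.29 (adjusted p = 0.205) without the control male with the highest level, and in a fit of KO mice alone (adjusted p = 0.0846). Least firm of the 8 calls in KO males was Hspa1a (-0.385, adjusted p = 0.0459 in edgeR's test). It was lost in 19 of 32 fits with 1 mouse left out and under 6 of 8 alternatives. Without the 9 libraries rich in muscle or fibroblast RNA, Hspa8 in KO females went from 0.60 to 0.30 (adjusted p = 0.264). Dnajb1 fell in all but WT females, where its log2 fold change was -0.13 (adjusted p = 0.188), and Hspe1 was called higher in all but WT males, where it was 0.32 (adjusted p = 0.371). The call of Hspe1 in WT females (0.71, adjusted p = 0.0464) was lost in 13 of 32 fits with 1 mouse left out, to 0.45 (adjusted p = 0.223) without the UV female with the highest level, and under 3 of 7 alternatives. Its call in KO females was lost without the 9 libraries (0.94, adjusted p = 0.0636) and when 1 UV female was left out (0.71).

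Within groups, some of the 10 genes varied together from mouse to mouse. After removal of the 8 group means, Pearson's r over the 32 mice was 0.91 for Hspa1a and Hspa1b, 0.70 for Hspa8 and Hsph1 and 0.67 for Hspa1b and Hsph1, and 0.50 or less for the other 42 of 45 pairs. Hspa1a and Hspa1b share sequence, as given above, and all values of a mouse share its library. Over 14905 genes, the profile most like that of Hspa8 was Gm15459 (r = 0.90), whose sequence covers 26.3% of the windows of Hspa8, and that most like Hsph1 was Hsp90b1 (r = 0.81), the HSP90 of the endoplasmic reticulum. Hspd1 was most like Mrpl12 (0.86), a mitochondrial ribosomal protein gene, and Mt1 (0.86), a metallothionein gene. Hsf1 was most like Cyc1 (0.87) and Uqcrc1 (0.87), genes of respiratory complex III, of which Cyc1 is another gene of chromosome 15. Hspb1 was most like Prrg2 (0.82) and Krt78 (0.82), a keratin gene. Hsp90aa1 was most like Tra2a (0.85), a splicing regulator gene, and Dnajb1 most like Hmcn1 (0.71).

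The other genes of the chaperone network were taken in lists written with earlier results of these mice known, and their counts stand beside the 34.5% of all genes that rose in WT and the 37.3% in KO mice. Of the TRiC/CCT chaperonin and prefoldin, which fold actin and tubulin, 13 of 14 rose and 0 fell in each genotype, and their median log2 fold change was 0.55 (WT) and 0.53 (KO). Cct3 went from 151 ± 11.9 to 299 ± 11.6 cpm in WT mice (SD, n = 8), a log2 fold change of 0.98 (SE 0.056, adjusted p = 8.18e-15 in edgeR's test), and Pfdn4 changed by 1.04. Pfdn5 was the exception (-0.023 in WT and 0.019 in KO mice). Of HSP90 proteins and co-chaperones outside the 10 genes, 13 of 16 rose in each genotype, 2 fell in WT and 1 in KO mice. Hsp90ab1, the constitutive HSP90, went from 1709 to 2076 cpm in WT mice, a log2 fold change of only 0.28 (adjusted p = 9.99e-07) where the inducible Hsp90aa1 changed by 3.0. Ahsa2, an activator of the HSP90 ATPase, rose by a log2 fold change of 1.14 in WT and 1.44 in KO mice. Ptges3, the co-chaperone p23, rose by 0.71 and 0.83 and was next by the mean of both genotypes, although in WT mice Ppid (0.79) and Chordc1 (0.77) lay above it.

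Of the other HSP70 family genes, 7 of 11 rose and 2 of 11 fell in each genotype. Hspa5 (BiP, of the endoplasmic reticulum) rose from 347 ± 60.3 to 832 ± 120 cpm in WT mice (SD, n = 8, log2 fold change 1.26, SE 0.120, adjusted p = 3.07e-10 in edgeR's test), and Hspa9 (mortalin, of mitochondria) from 204 ± 7.78 to 451 ± 46.0 cpm (1.14). Hspa12a fell by 3.42 and Hspa2 by 0.83 on the log2 scale in WT mice. Of 23 other HSP40 genes tested, 12 rose and 5 fell in WT and 14 rose and 4 fell in KO mice. Dnajb9 (ERdj4, a co-chaperone of BiP) rose by a log2 fold change of 3.37 in WT and 3.40 in KO mice, from 20.2 ± 3.98 to 206 ± 72.4 cpm in WT (SD, n = 8). Dnajc2, of the ribosome, changed by 0.80 in WT mice, while Dnajb5 fell by 1.13 and Dnaja4 by 0.90. Among HSP70 regulators 5 of 10 rose and 2 fell in WT, and 6 rose and 3 fell in KO mice. Hspbp1 (1.05) and Bag3 (0.98) rose most in WT mice, Sil1, an exchange factor for BiP, fell by 3.79 on the log2 scale, and Bag4 by 0.51.

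Mitochondrial chaperones and proteases rose in 9 of 12 cases in WT and 8 of 12 in KO mice, and 2 and 3 fell. Grpel1, the exchange factor of mortalin, rose from 44.3 ± 3.20 to 137 ± 18.0 cpm in WT mice (SD, n = 8, log2 fold change 1.63, SE 0.082, adjusted p = 9.75e-16 in edgeR's test). Hscb, an iron-sulfur co-chaperone, fell by 1.25 and Clpb by 0.18 on the log2 scale. Of the other heat shock factors and their regulators, 4 of 7 were measured. Hsf2 fell by 1.73 on the log2 scale in WT and 1.77 in KO mice, from 40.3 to 12.1 cpm in WT, and Hsbp1l1 by 1.52 and 1.77. Hsbp1, which binds HSF1, rose by a log2 fold change of 0.71 and 0.73, and Hsf4 was at a mean of 0.796 to 1.60 cpm in the 4 groups (0.64 and 0.98). Without the 9 libraries, 1 of these 4 rose in WT mice. Of genes listed as small heat shock proteins, Hspb1 aside, 2 of 7 rose and 2 fell in WT mice, and 1 rose and 1 fell in KO mice. Without the 9 libraries rich in muscle or fibroblast RNA, 2 of 6 rose and 4 fell in WT mice, and 2 rose and 1 fell in KO mice. Hspb8 rose by 0.52 and 0.48, and Hspb11, in the list by its symbol only, fell by 1.13 and 0.88. Hspb6 and Hspb7, which are muscle genes, did not pass the test (0.51 and 0.92 in WT mice), beside skeletal muscle markers at 4.16 to 2682 cpm in WT UV mice.

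Genes known as inducible by HSF1 outside the 10 rose in 12 of 15 cases in each genotype, 1 fell in WT and 0 in KO mice, and the median log2 fold change was 0.53 in WT and 0.55 in KO mice. Serpinh1 (HSP47, a collagen chaperone) went from 16.6 ± 6.16 to 27.3 ± 6.28 cpm in WT (SD, n = 8) and from 13.6 ± 5.99 to 40.6 ± 30.4 cpm in KO mice, where 1 UV female with 2198 cpm of dermal fibroblast markers was included. Immediate-early genes, known to respond to stress and to handling of tissue, rose in 17 of 18 cases in WT and 16 of 18 in KO mice. Atf3 changed by a log2 fold change of 2.63 in WT and 3.55 in KO mice and Fosb by 2.63 in each, and in controls Fosb varied as much as its mean (15.9 ± 21.2 cpm in WT, SD, n = 8). Of all genes in these chaperone and stress lists, 1 was called for a difference in its UV change between genotypes, beside 0.765% of all genes tested. Fkbp5, an HSP90 co-chaperone, fell by 2.02 in WT and 0.62 in KO mice on the log2 scale, a difference of 1.39 (SE 0.246, adjusted p = 0.00639 in edgeR's test), and was already lower in KO controls (-1.20, SE 0.174, adjusted p = 0.00043). After UV, KO and WT mice did not pass the test of a difference in Fkbp5 (0.19, SE 0.174, adjusted p = 0.579 in edgeR's test). Fkbp5 lies on chromosome 17, 97.6 kb from Ppard, so an effect of linked DNA and the loss of Ppard cannot be told apart.

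Markers of other cells were counted in the same libraries. Beside them, 34.5% of all genes tested rose and 36.5% fell in WT mice, and 37.3% rose and 33.5% fell in KO mice. Of T cell markers, 11 of 11 fell in WT and 9 of 11 in KO mice, with a summed level of 136 to 301 cpm in WT controls and 37.6 to 94.1 cpm in WT UV mice. Langerhans cell markers fell in 7 of 9 cases in WT and 5 of 9 in KO mice, where 2 rose. Neutrophil and monocyte markers rose in 6 of 9 cases in WT and 8 of 9 in KO mice, where 1 fell, from 44.6 to 174 cpm in WT controls to 687 to 1583 cpm in WT UV mice in sum. Most of that sum was S100a8 (mean 23.1 to 427 cpm in WT) and S100a9 (28.2 to 549 cpm), while Cxcr2 had 28.6 and 29.2 cpm. Basal keratinocyte markers rose in 3 of 7 cases and fell in 2 in WT mice, and rose in 5 and fell in 1 in KO mice. Dermal fibroblast markers fell in 3 of 8 cases in WT and 0 of 8 in KO mice, and 0 of 9 skeletal muscle markers passed the test in either. Without the 9 libraries rich in these markers, 9 of 9 muscle markers were lower after UV in WT and 5 of 9 in KO mice. Of fibroblast markers, 5 of 7 were then lower in WT and 0 of 7 in KO mice. Those libraries were left out for high sums of these same markers, so such counts cannot decide whether the markers changed with UV. Endothelial, adipocyte, melanocyte and red blood cell markers stayed at or under 68.9 cpm in sum in every library. All 10 genes are expressed in most cell types, and the part of these cells in their changes was not tested. Over 110 pairs of a member and a marker list, r over the 32 mice after removal of the group means exceeded 0.5 in size for 2, Hspb1 with suprabasal markers (0.67) and Hsf1 with T cell markers (-0.53, and -0.41 without the 2 mice with the most extreme sums).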

How the data were processed

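The authors trimmed single-end reads with Cutadapt (1.8), removed ribosomal and low-complexity reads, aligned with STAR (2.5.3a) and assigned them to genes with htseq-count (0.9.1). Build GRCm38 is named in the submitters' processing notes, and the strand setting is not given in the sources used here. The deposited values are raw counts for 55401 Ensembl identifiers. Of uniquely aligned reads, those on no gene (6.80 to 9.75%) and ambiguous ones (1.28 to 1.56%) were left out. Those aligned to several places were left out too. They made up 31.4 to 34.9% of all aligned in control mice and 31.6 to 38.8% in UV mice. The labels give RNA quality numbers of 6.4 to 8.4, which differs from the higher range in the study's methods. GENCODE M21 supplied symbols, positions and exon lengths. Following the study's filter, a gene entered the tests if any 1 mouse reached 1 cpm. In R 4.3.3, counts were scaled with TMM and fitted with 8 group means in edgeR 4.0.16 (quasi-likelihood F test, two-sided, Benjamini-Hochberg adjustment over all 15546 genes per contrast). The code was also run on simulated data with few changed genes and the same spread for every gene. That setting is unlike these data, so it does not show how well the test performs here. The study itself used limma-trend, tried as an alternative (limma 3.58.1), as were DESeq2 1.42.0, RLE scaling, other filters, fits of part of the mice and the removal of each mouse. Named genes were the 10 members, Ppard, up to 2 largest rises and falls of each list among genes called alike in both genotypes with at least 10 counts on average, and up to 3 most similar profiles. Hsp90ab1, Ppid, Chordc1, S100a8, S100a9, Cxcr2, Pfdn5, Hspb6, Hspb7, Krt1 and Krt10 were named after their values were seen. Members and lists were chosen with earlier results of these data known. The p-values measure the spread between mice. As a check for libraries deposited more than once, the 48 pairs within groups were compared, and each differed by more than sampling noise (chi-square per degree of freedom at least 19.5).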

Additional observations from a re-analysis of the deposited data

Results flagged for a closer look

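In 80 groups of 4 mice (10 genes in 8 groups), 5 held 1 mouse far from the other 3 by Dixon's test, where chance gives about 1 in 20. A KO control male had Hspa8 at 112 cpm against 81.0 to 84.6 cpm in the other 3 males of its group, and the same mouse had Hsph1 at 84.6 cpm against 48.4 to 52.4 cpm. Another KO control male had Dnajb1 at 193 cpm against 178 to 179 cpm. A KO UV male had Hspb1 at 347 cpm against 223 to 231 cpm, and its library was 1 of the 9 with over 1000 cpm of muscle markers. A WT control female, also among those 9, had Hsf1 at 29.4 cpm against 32.8 to 33.2 cpm.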

How the results depend on the processing

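No paired analysis was possible, because each mouse gave 1 library and the labels give no pairing between mice. The UV change of the 10 genes kept its direction under every alternative and with each mouse left out. This covered 392 log2 fold changes (each gene in each fit) in WT and 392 in KO mice. Under the alternatives 6 to 9 of the 10 were called in WT and 8 to 9 in KO mice, or 7 to 10 and 8 to 10 with 1 mouse left out. The log2 fold change of Hsp90aa1 lay between 2.90 and 3.10 in WT and between 2.92 and 3.26 in KO mice. The WT call of Hspa1a was also lost in DESeq2 (adjusted p = 0.0531) and with no filter on low counts (0.0519), and the KO call of Hsf1 with edgeR's filterByExpr (0.0876) and with no filter (0.155), while DESeq2 called Hsph1 in WT mice (0.0417). The causes were not tested. None of the 10 was called for genotype or for sex by UV under any alternative, so the sign changes below are among values that did not pass the test.

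The number of all genes called depended on the tool more than the members did. For the genotype difference in the UV change it was 119, against 777 in DESeq2, 55 with no filter, 30 without the 9 libraries rich in muscle or fibroblast RNA, and 56 to 346 with 1 mouse left out. Without UV, 32 became 78 in DESeq2, 15 in a fit of the control mice alone, 18 without the 9 libraries and 20 to 45 with 1 mouse left out. After UV, 514 became 1116 in DESeq2, 260 in limma, 263 with no filter, 40 in a fit of the UV mice alone, 26 without the 9 libraries and 133 to 983 with 1 mouse left out. For sex by UV, 0 became 22 in DESeq2, 2 in limma and 0 to 1 with 1 mouse left out. Higher calls made up 67.2% for genotype by UV, against 56.3% with RLE scaling and 54.1% in DESeq2, and 81.3% for genotype after UV, against 70.3% and 64.9%.

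For genotype by UV, the log2 difference changed sign for Hsph1 (-0.0363 with RLE scaling, -0.0363 in DESeq2, -0.0359 with filterByExpr, -0.0475 with no filter, -0.0344 without the 9 libraries) and for Hspb1 (-0.0372, -0.0372, -0.0385, -0.0499 and -0.218 in the same order, and -0.0106 in limma), and for Hsf1 without the 9 libraries (0.0166). For genotype without UV it did so without the 9 libraries for Hspa8 (-0.0143) and Hspd1 (-0.00923). After UV it did so for Hspa1a with no filter (-0.00481) and, without the 9 libraries, for Hspa1a (-0.143), Hspa1b (-0.0536) and Hsp90aa1 (-0.0205). For sex by UV it did so for Hsph1 (-0.00969 with RLE, -0.00965 in DESeq2, -0.0533 with filterByExpr, -0.0483 with no filter, -0.335 without the 9 libraries), Dnajb1 (-0.0137 with filterByExpr, -0.00657 with no filter), Hspd1 (0.000519 in limma) and Hspa1a (-0.0572 without the 9 libraries, -0.0989 with Hspa1b summed). In WT females, Dnajb1 was at 0.00321 without the 9 libraries. With 1 mouse left out, the ranges that crossed 0 were Hsph1 -0.0953 to 0.112 and Hspb1 -0.131 to 0.0519 for genotype by UV, Hspa8 -0.0358 to 0.0937, Hsph1 -0.128 to 0.0624, Hsp90aa1 -0.133 to 0.0185 and Hspd1 -0.0136 to 0.0564 without UV, Hspa1a -0.0433 to 0.107, Hsph1 -0.101 to 0.0825 and Hsp90aa1 -0.037 to 0.191 after UV, and Hsf1 -0.15 to 0.011, Hspa1a -0.0122 to 0.166, Hsph1 -0.124 to 0.115, Dnajb1 -0.0259 to 0.0895, Hspd1 -0.0882 to 0.0556 and Hspe1 -0.0214 to 0.273 for sex by UV.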
